A study of Mus musculus with 4 samples.

Results

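Among the mRNAs that were downregulated in splenic CD4+ T cells of an MRL/lpr mouse compared with a B6 mouse, 57 stood at 10 FPKM or more in B6 and are described here. FPKM, fragments scaled to transcript length and library depth, is a level per length, so genes can be set side by side. The members were chosen by their B6 level from the deposited table of 212 lower mRNAs, out of 652 mRNAs listed as lower or higher, and 7 further genes at or above this level, S1pr1, Tcf7, Lef1, Foxo1, Tgfbr3, Bcl2l11 and Pdk1, were set aside by the rule. A gene entered the table only if its B6 value was at least 2 times its MRL/lpr value and if a miRNA that was higher in MRL/lpr was predicted to target it. The lower value in MRL/lpr, the high value in B6 and the pairing with a higher miRNA were therefore given by the selection, and all values below are descriptions without a test.

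The B6 group was 1 female C57BL/6J mouse and the MRL/lpr group was 1 female mouse of the lupus model strain MRL/lpr, which carries the lpr mutation of Fas (Tnfrsf6lpr), both at 16 weeks of age and with no treatment named. CD4+ T cells were enriched from the spleen by removing the other cells with magnetic beads, and 1 mRNA and 1 small RNA library were made from each mouse, although the design text of the series speaks of 2 B6 mice. Strain, disease and individual mouse cannot be told apart, and there is no replicate error. In bulk cells, fewer cells of a type and less RNA per cell cannot be told apart either.

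A miRNA is a short RNA that guides a silencing complex to mRNAs, mostly through its seed, the bases 2 to 8 from its 5′ end, and the complex can then lower the stability or the translation of the bound mRNA. In CD4+ T cells, miRNAs such as miR-155 and miR-146a are known to change with activation, and activation also reshapes the mRNAs of resting T cells. In MRL/lpr mice the Fas death receptor is defective and T cells accumulate.

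After trimming, 33634335 small RNA reads were left for B6 and 29971024 for MRL/lpr, while the number of fragments in the mRNA libraries is not known. Of the T cell markers Cd3d, Cd3e, Cd3g, Cd4, Trac and Lck, 0 of 6 were in either mRNA table, and neither was any of 10 B cell markers. Of 12 myeloid markers, 2 were listed, both higher, with Itgam at 1.71 FPKM in B6 against 28.1 in MRL/lpr and Cd68 at 7.28 and 28.7. Of 10 erythroid markers, Tfrc alone was listed, at 15.9 and 37.9 FPKM. The tables hold only changed genes with a paired miRNA, so an absent marker was not read as unchanged or as missing, and the part of other cells in the values below was not tested.

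The miRNAs paired with the members are shown first, since each member was listed for its pairing. The 57 members formed 79 pairs with 38 mature miRNAs, out of 69 miRNAs listed as higher in MRL/lpr. The sequences below are those of the miRNAs paired with at least 3 members or among the 10 highest in MRL/lpr, as deposited, without miR-143-3p and miR-3107-5p, which are named only. They are written 5′ to 3′ in DNA letters with the seed in capitals.
miR-24-3p: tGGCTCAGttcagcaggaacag
miR-410-3p: aATATAACacagatggcctgt
miR-18a-5p: tAAGGTGCatctagtgcagatag
miR-330-5p: tCTCTGGGcctgtgtcttaggc
miR-27a-3p: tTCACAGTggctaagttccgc
miR-23a-3p: aTCACATTgccagggatttcc
miR-183-5p: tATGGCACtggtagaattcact
miR-182-5p: tTTGGCAAtggtagaactcacaccg
miR-19a-3p: tGTGCAAAtctatgcaaaactga
miR-381-3p: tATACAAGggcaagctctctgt
miR-127-3p: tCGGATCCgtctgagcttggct
miR-22-3p: aAGCTGCCagttgaagaactgt
miR-155-5p: tTAATGCTaattgtgataggggt

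Pairs of partner miRNAs that share a seed are shown for comparison, since they had members in common. MiR-146b-5p and miR-351-5p are shown only because they share the seeds of miR-146a-5p and miR-125b-5p.
miR-146a-5p: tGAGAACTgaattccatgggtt
miR-146b-5p: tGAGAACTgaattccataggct
miR-125b-5p: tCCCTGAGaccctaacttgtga
miR-351-5p: tCCCTGAGgagccctttgagcctg
By sequence, miR-146a-5p and miR-146b-5p carry 1 seed and were both paired with Nr4a3 and Usp3. MiR-125b-5p and miR-351-5p carry 1 seed and were both paired with Smg1 and Mfhas1, and miR-125b-5p also with Klf13. MiR-221-3p and miR-222-3p shared a seed and the members Etv3 and Otud1, and miR-130a-3p, miR-130b-3p and miR-301b-3p shared a seed and the members Tet3 and Mdn1. The 38 miRNAs thus carried 33 distinct seeds.

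In the GRCm38.p6 build of RefSeq, miR-183-5p lies at chr6:30169711-30169732 on the minus strand, close to miR-96-5p at chr6:30169506-30169528 and miR-182-5p at chr6:30165962-30165986, which are made from 1 cluster. The mature miR-23a-3p lies at chr8:84208563-84208583 and miR-27a-3p at chr8:84208727-84208747, both on the plus strand, and 1 of the copies of miR-24-3p follows them. The genes of miR-410-3p, miR-381-3p, miR-127-3p and 6 further partner miRNAs lie on chromosome 12 between Dlk1 and Dio3, which bound an imprinted region.

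The 57 members spanned 10.2 to 185 FPKM in B6, with a median of 21.9, and 0.380 to 60.4 FPKM in MRL/lpr, with a median of 7.25. The median member kept 37.7% of its B6 value, a median log2 fold change of -1.41, and the range ran from 3.74% to 49.5% left. Of the lower mRNAs in the table, 29.2% (62 of 212) were at least 4-fold lower in MRL/lpr, against 10 of the 57 members, or 17.5%. Among the 148 lower mRNAs under 10 FPKM in B6, 49 were at least 4-fold lower, or 33.1%, and the median log2 fold change was -1.61. The median member was 2.65-fold lower, and 36 of the 57 were under 3-fold lower and 11 were 3- to 4-fold lower. Folds under 3 were common in the whole table too, with 110 of the 212 lower mRNAs under 3-fold and 40 at 3- to 4-fold.

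**Figure D1:**
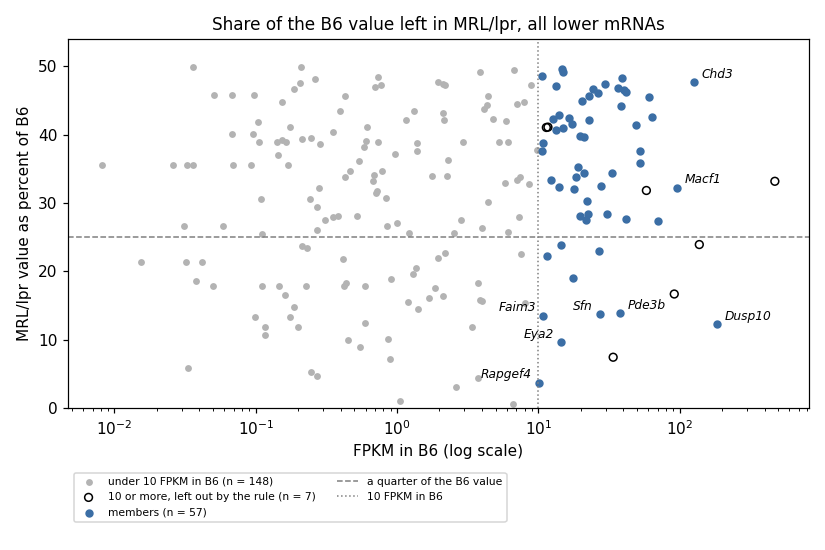
MRL/lpr value as a percent of the B6 value (y axis) against the B6 level in FPKM on a log scale (x axis) for the 212 lower mRNAs, 1 point per mRNA and 1 library per strain. The 57 members (blue) lie right of 10 FPKM, and 10 of them, among them Dusp10, Pde3b, Sfn, Eya2 and Rapgef4, lie under the dashed line at 25% of the B6 value.

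Of the 57 members, 20 were at 10 FPKM or more in MRL/lpr, 11 were under 5 FPKM and 3, Faim3, Eya2 and Rapgef4, were under 2 FPKM. Over all 212 lower mRNAs, 24 were at 10 FPKM or more in MRL/lpr and 162 were under 5 FPKM. These counts follow in large part from the B6 level. With the 2-fold limit, a member under 20 FPKM in B6 cannot pass 10 in MRL/lpr, and 0 of the 25 such members reached it. The summed level of the members went from 1796 FPKM in B6 to 620 in MRL/lpr, so that 34.5% was left. Dusp10 alone made up 10.3% of the B6 sum and 13.8% of the difference between the sums. Over the 57 members, the levels of both strains had a Spearman rho of 0.86. The table sets a minimum fold and no maximum, so each MRL/lpr value is capped by its B6 value. A high rho is therefore partly built in and does not show that the order was kept. All values come from the same pair of libraries. Over the same 57 members, rho with the size of the fold was -0.09 for the B6 level and -0.18 for the highest level of a paired miRNA in MRL/lpr. These are correlations across genes, which are not independent replicates.

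**Figure D2:**
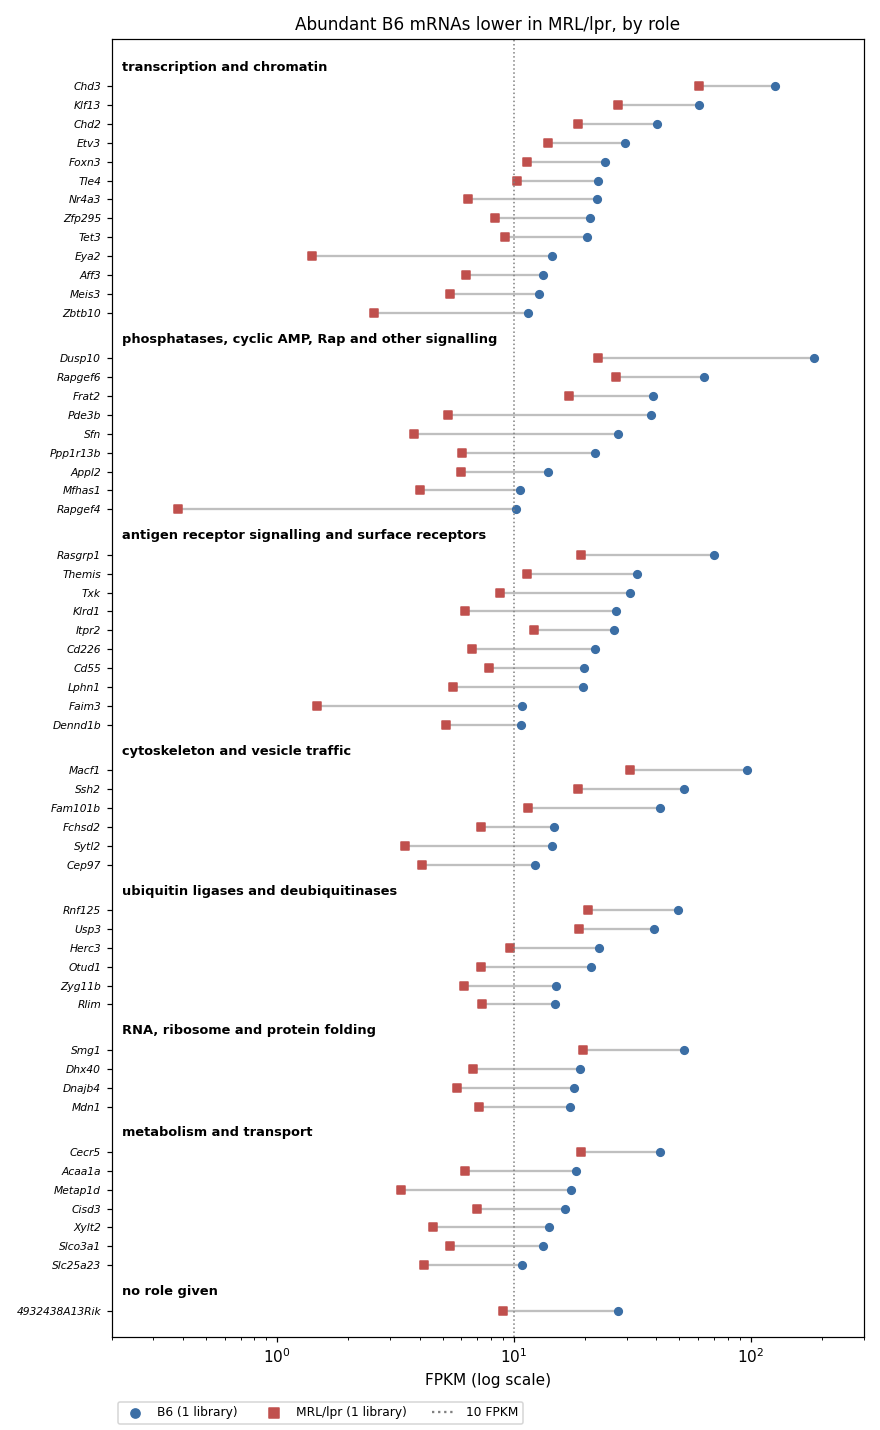
Level of 56 of the 57 members in B6 (blue circles) and MRL/lpr (red squares) in FPKM on a log scale, 1 library per strain, grouped by role. Most lines are of similar length, while Rapgef4, Eya2, Dusp10, Faim3, Sfn and Pde3b had the longest lines and 19 of those shown lay right of the dotted line at 10 FPKM in MRL/lpr.

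The members were grouped by what their products are known to do, after the members had been seen, so differences between groups are descriptions only. The antigen receptor and surface receptor group held 10 members and kept a median of 29.3% of the B6 level. A T cell receives antigen through the T cell receptor, whose signal passes through tyrosine kinases and adaptors to Ras and calcium. Rasgrp1, the exchange factor that activates Ras when diacylglycerol is made, stood at 70.3 FPKM in B6 against 19.2 in MRL/lpr, 3.66-fold lower. Txk, a Tec family tyrosine kinase of T cells, stood at 30.9 and 8.77 FPKM, and Themis, an adaptor of antigen receptor signalling, at 33.0 and 11.4 FPKM. Of a list of 34 T cell receptor signalling genes, only these 3 were in either table, and as members they are lower by the selection. The list was written with earlier results of these data known, so its count says nothing about the pathway as a whole. Over all 8 such lists, 9 of 230 genes were listed as lower and 8 as higher. The receptor chains and the kinases Lck and Zap70 were in neither table. Itpr2, a calcium channel that opens to inositol trisphosphate, differed less, with 26.5 FPKM in B6 against 12.2 in MRL/lpr.

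Of the surface receptors, Faim3 (Fcmr in RefSeq), the Fc receptor for IgM that B cells and T cells carry, had the largest fold, with 10.9 FPKM in B6 against 1.47 in MRL/lpr, 7.40-fold lower. Klrd1, the CD94 chain of receptors of NK cells and of some T cells, stood at 27.0 and 6.22 FPKM, 4.35-fold lower. Klrd1 was the only one of 11 CD8 T and NK cell markers in either table. Cd226, an activating receptor of T and NK cells, stood at 22.0 and 6.66 FPKM. Cd55, which protects cells from complement, stood at 19.8 and 7.88 FPKM and kept a larger share, 39.8%. Lphn1 (Adgrl1 in RefSeq), an adhesion G protein-coupled receptor, stood at 19.7 and 5.52 FPKM. Dennd1b, an exchange factor for Rab proteins that act in receptor traffic, was close to the limit of the table on both sides, with 10.7 FPKM in B6 against 5.19 in MRL/lpr.

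The signalling group of 9 members had the lowest median share left of the groups, 27.6%, with 4 members at least 4-fold lower. Dusp10, a phosphatase that switches off the stress-activated MAP kinases p38 and JNK, was the highest member in B6. It stood at 185 FPKM in B6 against 22.7 in MRL/lpr, 8.15-fold lower, and ranked 1 of 57 in B6 and 5 of 57 in MRL/lpr. Its only paired miRNA was miR-183-5p, which had 571 reads (17.0 RPM, reads scaled to the trimmed reads of the library) in B6 against 5819 reads (194 RPM) in MRL/lpr. The listed Dusp genes differed in direction. Dusp7 was lower, with 7.07 FPKM in B6 against 2.36 in MRL/lpr, whereas Dusp4, Dusp14, Dusp16, Dusp3 and Dusp9 were all in the table of higher mRNAs. Dusp4, which acts on ERK among other MAP kinases, stood at 16.6 FPKM in B6 against 34.9 in MRL/lpr, 2.10-fold higher, and Dusp14 stood at 1.55 and 9.93 FPKM. Dusp10 was thus 11.1 times as abundant as Dusp4 in B6 and 0.651 times as abundant in MRL/lpr.

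**Figure D3:**
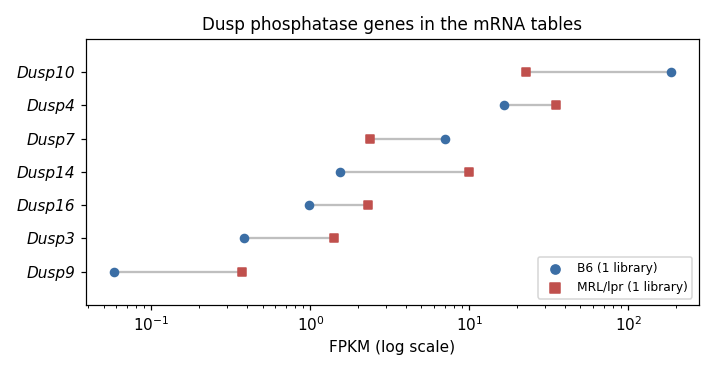
Level in FPKM on a log scale of the 7 Dusp genes in the mRNA tables, in B6 (blue circles) and MRL/lpr (red squares), 1 library per strain. Dusp10 and Dusp7 were lower in MRL/lpr and the other 5 were higher, and Dusp10, at 185 FPKM in B6, stood at 22.7 in MRL/lpr, below Dusp4 at 34.9.

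Several members act on cyclic AMP and on the small GTPase Rap, which controls integrin adhesion. Rapgef4, an exchange factor that activates Rap when it binds cyclic AMP, stood at 10.2 FPKM in B6 against 0.380 in MRL/lpr, 26.7-fold lower, the largest fold of the members. It was also the member closest to the minimum of 10 FPKM, so a slightly higher minimum would have left it out. Pde3b, a phosphodiesterase that breaks down cyclic AMP, stood at 37.8 and 5.25 FPKM, 7.19-fold lower. Rapgef6, another exchange factor for Rap, was more abundant in both, at 63.6 and 27.1 FPKM. Rapgef5, of the same family, went the other way at a low level, with 0.450 FPKM in B6 against 1.03 in MRL/lpr.

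Sfn, the 14-3-3 sigma protein that is a target of p53 in epithelial cells, stood at 27.5 FPKM in B6 against 3.78 in MRL/lpr, 7.29-fold lower. Ppp1r13b, the p53 cofactor ASPP1, stood at 21.9 and 6.04 FPKM. Frat2, which binds GSK3 in Wnt signalling, kept 44.3%, at 38.6 and 17.1 FPKM. The endosomal adaptor Appl2 stood at 14.0 and 5.99 FPKM and the leucine-rich repeat protein Mfhas1 at 10.6 and 3.99 FPKM, so the group held both small and large differences.

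The transcription and chromatin group was the largest, with 13 members, and kept a median of 45.6% of the B6 level. Of these, 10 were under 3-fold lower. Chd3, a chromatin remodeller of the NuRD complex, was the second most abundant member in B6 and the most abundant in MRL/lpr, with 127 and 60.4 FPKM. Its relative Chd2 stood at 40.2 and 18.7 FPKM, a fold of similar size. Klf13, a zinc finger factor that drives late chemokine expression in T cells, stood at 60.7 and 27.6 FPKM and was the only gene in either table of a list of 26 resting T cell genes, which left out those set aside by the rule. The repressors followed closely: Etv3 of the ETS family stood at 29.6 and 14.0 FPKM, the forkhead factor Foxn3 at 24.4 and 11.4, and the Groucho corepressor Tle4 at 22.7 and 10.4.

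Tet3, which oxidises methylated cytosine in DNA, stood at 20.4 FPKM in B6 against 9.16 in MRL/lpr, 2.22-fold lower. Tet1, its relative, was in the table below the minimum level, with 1.86 and 0.328 FPKM. Nr4a3, an orphan nuclear receptor induced by antigen receptor signals, stood at 22.5 and 6.39 FPKM, 3.53-fold lower. The zinc finger protein Zfp295 (Zbtb21 in RefSeq) stood at 21.0 and 8.31 FPKM, Aff3 of the AF4 family at 13.3 and 6.27, and the homeobox factor Meis3 at 12.7 and 5.38. Eya2 and Zbtb10 stood apart from the rest of the group. Eya2, a coactivator with phosphatase activity, stood at 14.6 and 1.40 FPKM, 10.4-fold lower, and the zinc finger protein Zbtb10 at 11.5 and 2.56 FPKM, 4.48-fold lower.

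The ubiquitin group held 6 members within a narrow range, from 34.4% to 49.1% left, and 0 of 6 were at least 4-fold lower. Rnf125, a ubiquitin ligase of T cells that was first described as TRAC-1, stood at 49.5 FPKM in B6 against 20.5 in MRL/lpr. Usp3, a deubiquitinase of histones, stood at 39.0 and 18.9 FPKM, and the ligase Herc3 at 22.8 and 9.60 FPKM. Otud1, a deubiquitinase, had the largest fold of this group, 2.91, with 21.1 and 7.25 FPKM. Zyg11b, a substrate receptor of a cullin ligase, stood at 15.1 and 6.16 FPKM, and the ligase Rlim at 14.9 and 7.32 FPKM.

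The cytoskeleton and traffic group of 6 members kept a median of 32.8%. Macf1, a giant protein that links microtubules to actin, was the third most abundant member in B6, with 96.5 FPKM there and 31.1 in MRL/lpr, 3.10-fold lower. Ssh2, a phosphatase that activates the actin-severing protein cofilin, stood at 52.2 and 18.7 FPKM, and Fam101b (Rflnb in RefSeq), which binds filamin, at 41.5 and 11.5 FPKM. Sytl2, an effector of Rab27 in granule release, stood at 14.5 and 3.46 FPKM, 4.18-fold lower. The centriole protein Cep97 stood at 12.3 and 4.11 FPKM. Fchsd2, an F-BAR protein of endocytosis, kept the largest share of all members, 49.5%, at 14.7 and 7.29 FPKM.

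Of the 5 members that act on RNA, ribosomes and protein folding, 4 were under 3-fold lower. Smg1, the kinase of nonsense-mediated mRNA decay, stood at 52.2 FPKM in B6 against 19.6 in MRL/lpr. Mdn1, an ATPase of ribosome assembly and among the longest mammalian proteins, stood at 17.2 and 7.16 FPKM. The helicase Dhx40 stood at 19.0 and 6.71 FPKM and the chaperone Dnajb4 was 3.13-fold lower.

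The 7 members of metabolism and transport kept a median of 38.7%. Cecr5 (Hdhd5 in RefSeq), a hydrolase-like protein, was the highest of them, at 41.5 FPKM in B6 against 19.2 in MRL/lpr. Metap1d, an aminopeptidase that removes the first methionine from mitochondrial proteins, was the one with the largest fold, at 17.5 and 3.32 FPKM, 5.27-fold lower. The peroxisomal thiolase Acaa1a stood at 18.4 and 6.21 FPKM, and the xylosyltransferase Xylt2, which starts the sugar chains of proteoglycans, at 14.1 and 4.55 FPKM. The mitochondrial iron-sulfur protein Cisd3, the transporter Slco3a1 and the mitochondrial carrier Slc25a23 were 2.36-, 2.46- and 2.58-fold lower. The gene 4932438A13Rik, given no role here, stood at 27.7 and 8.99 FPKM.

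The threshold of 10 FPKM separated genes of similar levels. Just inside it were Dennd1b, Mfhas1 and Rapgef4, at 10.7, 10.6 and 10.2 FPKM in B6. Just outside it were Chst10 (9.85 FPKM in B6 against 3.72 in MRL/lpr), Mri1 (8.96 and 4.23 FPKM) and Cd160 (8.55 and 2.80 FPKM). Cd160, a receptor of NK and T cells, kept 32.7%, close to the 30.3% of Cd226.

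The pairing of a member with a miRNA was mostly single, as it was for the lower mRNAs as a whole. The share with 1 paired miRNA was 70.2% for the members, against 63.2% (134 of 212) for all lower mRNAs. Of the 57 members, 40 had 1 paired miRNA, 13 had 2, Nr4a3, Otud1 and Mdn1 had 3 and Tet3 had 4. When miRNAs of 1 seed were counted once, 45 members had 1 seed and 12 had more than 1. The members with 1 partner kept a median of 34.6% of the B6 level and the 17 with 2 or more kept 40.6%, with ranges of 9.63% to 49.5% and 3.74% to 48.5% that overlapped. The 3 partners of Mdn1 shared 1 seed, as did 3 of the 4 partners of Tet3.

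Of the 57 members, 5 had a partner of at least 1000 RPM in MRL/lpr. With RPM taken over the authors' miRNA totals, 14 members had a partner past 1000. MiR-22-3p, at 5616 RPM in B6 against 16145 in MRL/lpr, was paired with Frat2 and Metap1d, and miR-146a-5p, which restrains NF-kappa B signalling in T cells, at 5486 and 13847 RPM, with Usp3 and Nr4a3. MiR-3107-5p, at 384 and 4630 RPM, was paired with Aff3 alone, and its deposited sequence is identical to that of miR-486-5p, a miRNA abundant in red blood cells. These 5 members kept 44.3% of the B6 level at the median, with a range of 19.0% to 48.3%, against 37.6% for the other 52, which ranged from 3.74% to 49.5%. The share of members with such a partner was 8.77%, against 15.5% (23 of 148) among the lower mRNAs under 10 FPKM in B6. Over the miRNA totals these shares were 24.6% and 30.4% (45 of 148). The median level of the highest partner in MRL/lpr went the other way. It was 57.5 RPM for the members and 37.8 RPM for those lower mRNAs under 10 FPKM.

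The counts that follow are given for the members only and do not set them apart from the other lower mRNAs. For 32 of the 57 members, all paired miRNAs were under 100 RPM in MRL/lpr, and for 11 they were under 10 RPM. Among the latter was Pde3b, 7.19-fold lower, whose 1 partner miR-153-3p had 21 reads in B6 against 162 in MRL/lpr (0.624 and 5.41 RPM). MiR-330-5p had the lowest level of all 38 partners in MRL/lpr, with 32 reads in B6 against 91 in MRL/lpr (0.951 and 3.04 RPM). It was paired with 14 lower mRNAs, of which 4 were members, Macf1, Cecr5, Acaa1a and Eya2. Its fold was 3.19, with an exact Clopper-Pearson 95% interval of 2.11 to 4.94. Such intervals were computed from the reads of each library and cover counting error only. Binding of these miRNAs to the paired mRNAs was not measured.

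**Figure D4:**
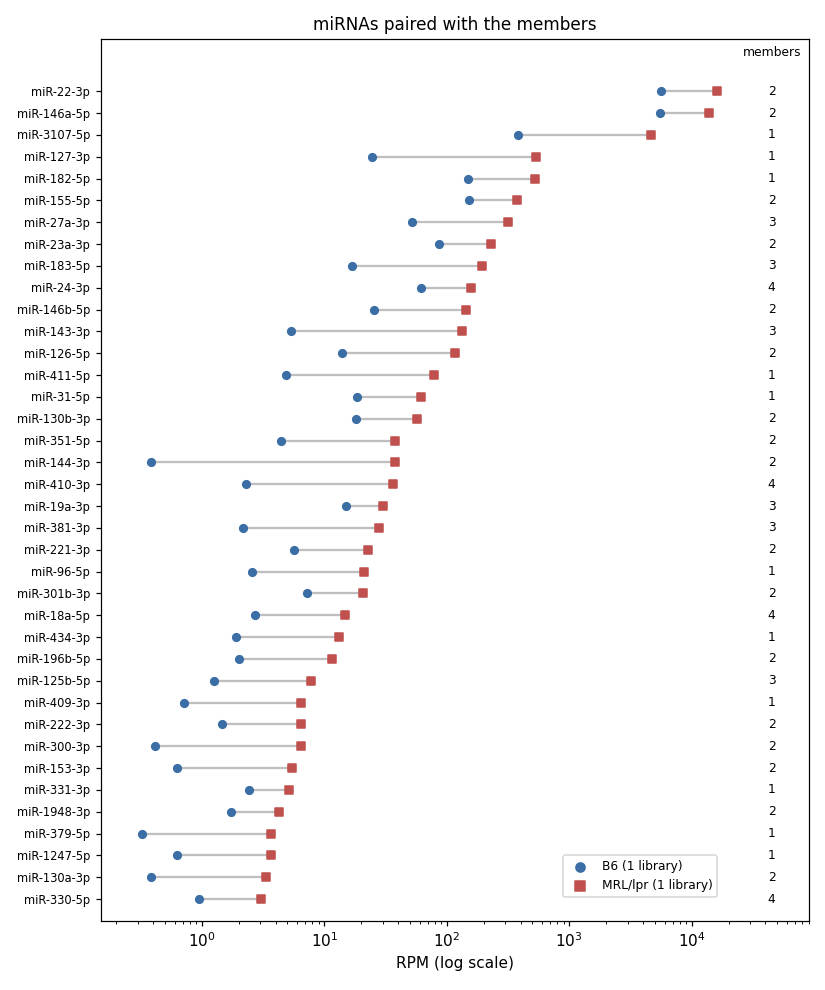
Level of the 38 miRNAs paired with the members in B6 (blue circles) and MRL/lpr (red squares) in RPM on a log scale, 1 library per strain, ordered by the MRL/lpr level, with the number of members paired with each at the right. The 3 miRNAs above 1000 RPM in MRL/lpr had 1 or 2 members each, and miR-330-5p, the lowest at 3.04 RPM, had 4.

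The miRNAs with the most members were miR-24-3p, miR-410-3p, miR-18a-5p and miR-330-5p, with 4 each. These were 4 of their 11, 12, 7 and 14 paired lower mRNAs, while the members were 57 of the 212 lower mRNAs. MiR-24-3p had 61.1 RPM in B6 against 158 in MRL/lpr, 2.58-fold higher (95% interval 2.45 to 2.72), and was paired with Itpr2, Cisd3, Appl2 and Faim3. MiR-18a-5p had 2.71 and 14.8 RPM and was paired with Zfp295, Dnajb4, Xylt2 and Rapgef4. Both miRNAs were thus paired with a member that was over 7-fold lower beside members that were 2- to 4-fold lower.

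MiR-183-5p, known from sensory organs, was 11.4-fold higher (95% interval 10.5 to 12.5) and was paired with Dusp10, Txk and Cep97. MiR-182-5p and miR-96-5p of the same cluster were paired with Foxn3 and Rapgef4. MiR-182-5p had 149 RPM in B6 against 523 in MRL/lpr, and miR-96-5p had 2.59 and 20.9 RPM. Together, the cluster was paired with 5 members, whose share left ran from 3.74% for Rapgef4, also paired with miR-18a-5p, to 46.6% for Foxn3. The members were 3 of the 5 lower mRNAs paired with miR-183-5p, 1 of 8 for miR-182-5p and 1 of 9 for miR-96-5p.

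Of the miR-23a, miR-27a and miR-24 cluster, miR-27a-3p had 52.4 RPM in B6 against 316 in MRL/lpr, 6.02-fold higher (95% interval 5.72 to 6.34), and was paired with 3 members, 4932438A13Rik and Herc3 among them. MiR-23a-3p had 86.0 and 228 RPM and was paired with Ssh2 and Cd55. MiR-155-5p, a miRNA induced on lymphocyte activation, had 151 and 377 RPM and was paired with Tle4 and Sytl2. MiR-19a-3p had 15.0 and 30.0 RPM, close to the 2-fold limit of the miRNA list, and was paired with Otud1, Dhx40 and Zbtb10. MiR-125b-5p had 42 reads in B6 against 233 in MRL/lpr (1.25 and 7.77 RPM).

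MiRNAs of the Dlk1-Dio3 region were paired with 14 members, of which 9 had no partner outside it. The same counts over all lower mRNAs are not given, so they do not tie the region to abundant mRNAs. The 9 miRNAs of this region ranged from 3.67 to 537 RPM in MRL/lpr. MiR-410-3p had 77 reads in B6 against 1098 in MRL/lpr (2.29 and 36.6 RPM) and was paired with Chd3, Rapgef6, Nr4a3 and Fchsd2, 4 of its 12 lower mRNAs. MiR-381-3p had 2.17 and 28.1 RPM and was paired with Chd2, 4932438A13Rik and Tet3, 3 of its 11 lower mRNAs. MiR-127-3p had 24.3 and 537 RPM and was paired with a single lower mRNA of the table, Sfn. Chd3 and Chd2, the most abundant chromatin remodellers of the set, were thus both listed through miRNAs of this region.

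MiR-143-3p, abundant in smooth muscle, had 5.32 RPM in B6 against 132 in MRL/lpr, 24.8-fold higher (95% interval 21.4 to 29.0), and was paired with Cd226, Appl2 and Dennd1b. The largest fold among the partners was that of miR-144-3p, a miRNA of red blood cell precursors, with 13 reads in B6 against 1130 in MRL/lpr, 97.5-fold (95% interval 56.8 to 184). It was the only partner of Rasgrp1. Beside this, 1 of 10 erythroid markers was in the mRNA tables, and whether these reads came from the T cells was not tested.

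Some members lie near each other in the genome, by the end positions in the deposited tables. The distances run from end position to end position and are not the gaps between genes. Metap1d and Rapgef4 lie 732 kb apart on chromosome 2, with Pdk1, a kinase that holds back pyruvate dehydrogenase and one of the genes set aside, between them at 379 kb from the former and 354 kb from the latter. Pdk1 stood at 33.9 FPKM in B6 against 2.52 in MRL/lpr, so all these neighbours were more than 5-fold lower. RefSeq places Itga6, Dlx1 and Dlx2 in the same interval, and none of them was in either table. Cd55 and Faim3 lie 418 kb apart on chromosome 1 and were 2.51- and 7.40-fold lower. There were 4 such pairs of lower mRNAs at 10 FPKM or more within 1000 kb, with those of Pdk1 counted. Members also lay within 1000 kb of mRNAs listed as higher. Sfn lies 872 kb from Stmn1, at 48.3 FPKM in B6 against 166 in MRL/lpr. Closer to Sfn, at 114 kb, lies Fam46b, which was lower at a very low level, 0.0972 and 0.0445 FPKM. Frat2 lies 46.0 kb from Arhgap19, at 1.88 and 12.7 FPKM. In these examples, neighbours thus went in the same or in opposite directions. How often lower mRNAs lie this close by position alone was not tested. Sequence differences between the strains at these places were not measured, and their part in the values was not tested.

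The 8 genes that the rule names, which include the receptors S1pr1, Tgfbr3 and Il5ra, were left off 8 lists of T cell pathways although they are in the table of lower mRNAs. Of the 230 genes on these lists, 9 were in the table of lower mRNAs, 8 of them members, and 8 were in the table of higher mRNAs. The members were Klf13, Txk, Rasgrp1, Themis, Dusp10, Ssh2, Tet3 and Chd3. On the higher side stood Ezh2, a histone methyltransferase, at 14.1 FPKM in B6 against 36.4 in MRL/lpr, on the same list of chromatin genes as Chd3 and Tet3. Rhob, a small GTPase, and Myo1f, a myosin of white blood cells, were higher on the list that held Ssh2, with Rhob at 57.6 and 149 FPKM. Without S1pr1, no gene of the list of homing and adhesion receptors was in either table, and of the cytokine receptor list without Tgfbr3 and Il5ra, Socs3 was listed, as higher.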

How the data were processed

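The authors deposited, for each miRNA, its read count and its RPM, the count scaled to the trimmed reads, for miRNAs at least 2-fold different and with 100 reads or more in total. The mRNA values that the authors deposited as raw are read as FPKM, fragments scaled to transcript length and depth, from the Cuffdiff-style column names, a unit the tables do not state. Aligner, genome build and annotation: not given in the sources used here. The authors' columns of folds, test statistics, p-values and q-values were not used.

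The rule took lower mRNAs with a B6 value of at least 10 FPKM. It names 8 genes to leave out, of which 7 reached this level. Paired miRNAs came from the miRNA column of the table, which gives no score. Members, gene lists, role groups and alternatives were chosen with earlier results of these data known, and the role groups after the members had been seen. Values in full were given for the highest and lowest members in level or share left, those with 3 or more partners, those on the lists and those at the threshold, and for most other members. A result for 1 member is not reported here, though it is counted. Folds are plain ratios with no added value. Of 115 mRNAs under 0.2 FPKM in both libraries, 83 had a ratio that was 1.07 times a ratio of whole numbers up to 12, within 0.05%, against 4 with the step moved by -3% or 5%. Low values of these mRNAs thus stood at steps, but 32 did not match, so no fragment number, interval or floor is given for mRNA. MiRNA folds are ratios of RPM over the trimmed reads and carry exact Clopper-Pearson 95% intervals, which do not cover the choice of total. Reads are not independent molecules, so these cover counting error only.

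With 1 library per strain and assay, the strains were not tested against each other. Chromosomes and coordinates of miRNAs come from RefSeq, build GRCm38.p6, by identical sequence, with 1 miRNA trimmed at its 3′ end matched by name. Distances between genes run between the end positions in the deposited tables, which lay within 5000 bases of that build's for 617 of 652 mRNAs. Python 3.11.15, NumPy 2.4.6, pandas 2.3.3, SciPy 1.17.1 and Matplotlib 3.10.9 were used, and the member rule was tested on simulated data.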

Additional observations from a re-analysis of the deposited data

How the results depend on the processing

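The median log2 fold change of the members, -1.41, was -1.39, -1.24 and -1.01 with 0.1, 1 and 5 FPKM added to both values. It was -1.37 and -1.45 with a minimum B6 value of 20 and 50 FPKM, and -1.45 with the 7 genes set aside by the rule kept in. The number of members fell from 57 to 32 and 8 with a minimum of 20 and 50 FPKM. In place of 10 members at least 4-fold lower, 21 were at least 3-fold and 3 at least 8-fold lower, and 2 were 4-fold lower with 5 FPKM added. In place of 20 members at 10 FPKM or more in MRL/lpr, 46 reached 5 FPKM and 6 reached 20 FPKM. Counting only miRNAs of at least 100 RPM in MRL/lpr, 22 members had 1 partner in place of 40. In place of 5 members with a partner of at least 1000 RPM, 25 had one of at least 100 RPM, and 14 had one past 1000 when RPM was taken over the authors' miRNA totals. Of the 38 paired miRNAs, 24 were at least 4-fold and 10 at least 10-fold higher. With 1 FPKM added, the log2 fold change of all 57 members shrank, by 0.01 to 1.72, most for the member with the lowest MRL/lpr value, and none changed direction. No paired analysis was possible because no result comes from a test and each strain has 1 library per assay; for the same reason no replicate could be left out. The tables hold only mRNAs already at least 2-fold different and paired with a changed miRNA, so counts of members cannot show how many abundant mRNAs of B6 changed in all.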
